A study of Mus musculus with 33 samples.

Results

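Tumor-free mammary glands of PTHrP WT and PTHrP KO mice were compared at 8, 10 and 12 weeks of age. They were chosen by their labels, as 12 of the 33 libraries of the series, with 6 libraries per genotype and 2 mice per genotype and week. WT mice were Pthrpwt/wt and KO mice were Pthrpflox/flox. Mice of both genotypes carried Cre recombinase under the MMTV promoter and the mT/mG reporter, which switches from red to green fluorescent protein in cells where Cre has acted, and none of them carried the PyMT oncogene that drives the tumors of the same study. MMTV-Cre is active mainly in the mammary epithelium, and the floxed allele came from C57BL/6 mice backcrossed to FVB. The RNA was therefore that of epithelial cells sorted as GFP+ after a short culture, not that of whole glands, and it was total RNA depleted of ribosomal RNA (rRNA). The comparison asked what loss of PTHrP changes in mammary epithelium without a tumor.

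PTHrP, encoded by Pthlh, is a secreted peptide related to parathyroid hormone. It acts through the receptor encoded by Pth1r, which couples to G proteins and raises cyclic AMP. In the embryo it passes from the mammary bud epithelium to the surrounding mesenchyme and is needed for the gland to form, and in lactation the gland releases it into milk and blood.

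Pthlh itself was low in glands of both genotypes. In CPM, read counts scaled to a common total with TMM factors, it was 3.14 at the lowest, 5.78 at the median and 7.45 at the highest in the 6 WT glands, and 2.67, 3.35 and 8.2 in the 6 KO glands. The groups overlapped, and the KO gland of week 12 replicate 2 held the highest of the 12 values. The log2 difference, KO minus WT, was -0.49 ± 0.27 (SE; adjusted p = 0.558, edgeR's quasi-likelihood test with Benjamini-Hochberg adjustment). The count covers the whole gene, of which the loxP sites flank a part, so transcripts that lack only that part still add to it and the count cannot check the genotype labels. Pth1r was near the limit of detection, at 0.0213 to 0.771 CPM in WT and 0 to 0.366 CPM in KO glands.

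Of the other rows that mark the mouse lines, those for PyMT followed the labels of gland and tumor. Reporter and Cre rows cannot check the genotype, since mice of both genotypes carried them. The 4 rows for PyMT held 0 reads in all 12 glands, where a count of 0 allows up to 3 reads, and 451 to 3455 reads in the tumors of weeks 8 and 10. The EGFP row ran from 448 to 1060 CPM (here without TMM factors) in WT and from 304 to 805 in KO glands. A row for the end of the tdTomato cassette ran from 43.9 to 100 CPM in WT and from 62 to 201 in KO glands (exact permutation test on the log10 scale, two-sided, p = 0.039, adjusted over 3 rows p = 0.117). The third row, Cre recombinase, ran from 22.7 to 37.3 CPM in WT and from 24.5 to 48.1 in KO glands. Keratin genes of the luminal layer were abundant. Krt8 had a median of 3620 CPM in WT and 3010 CPM in KO glands, and Krt18 2410 and 2340 CPM. Krt14, a keratin of the basal layer, had medians of 1140 and 1320 CPM. None of these 3 keratin genes passed the test.

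Libraries of the genotypes differed in rRNA. Counted reads were 35228250 to 130981596 in WT and 28419983 to 48948162 in KO glands. Rows of type rRNA took 0.00296% to 0.261% of reads in WT glands, with a median of 0.014%, and 0.0224% to 18.8% in KO glands, with a median of 6.19%. The mean log10 share was 1.88 higher in KO glands (exact permutation test over all splits of 6 against 6, two-sided, p = 0.0173). Over 7 library measures the adjusted p was 0.0303. Nearly all of these reads were on 1 row, CT010467.1 (chr17:39846353-39848827, minus strand, GRCm38), and the 2 deposited tables disagreed on it. In the reads recovered from the normalized table, CT010467.1 took 0.0255% to 0.077% in WT and 0.00543% to 0.925% in KO glands, and the rRNA rows differed by -0.19 in mean log10 share (exact permutation p = 0.632). There Gm42418, a row on the plus strand over the same place (chr17:39846958-39848788) that the raw table does not list, took 0.0868% to 0.336% in WT and 0.0953% to 14.8% in KO glands. With Gm42418 added to the rRNA rows, the difference was 0.946 (exact permutation p = 0.0584). The 2 mitochondrial rRNAs took 0.373% to 1.46% of reads in WT and 1.86% to 8.32% in KO glands, with no overlap (exact permutation p = 0.00216, adjusted p = 0.0151). Genes with at least 1 read numbered 26019 to 32223 in WT and 21579 to 32003 in KO glands (exact permutation p = 0.026, adjusted p = 0.0364).

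**Figure D1:**
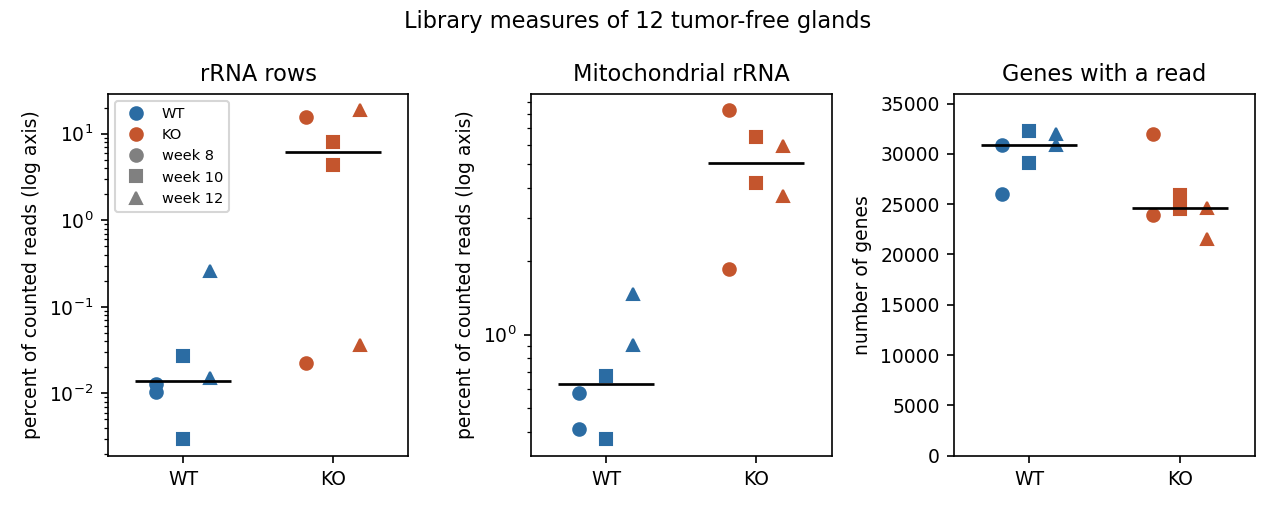
Share of counted reads on rRNA rows and on mitochondrial rRNA (percent, log axes) and number of genes with a read, for 6 WT and 6 KO glands, with 1 point per library, shapes for weeks and a line at the median of each group. Mitochondrial rRNA is higher in every KO library, while 2 KO libraries (week 8 replicate 1 and week 12 replicate 1) lie within the WT range for rRNA.

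Of 27578 genes tested with week as a covariate, 53 passed a fold change of 1.5 and an adjusted p of 0.1 (0.192%), 30 of them higher in KO glands (0.109%) and 23 lower (0.0834%). Without the adjustment, 2847 genes had p under 0.05. The 6 WT and 6 KO libraries did not overlap in CPM for 33 of the 53 genes and for 271 of all genes tested (0.983%). The median log2 difference over all tested genes was -0.064. By type, 21 were nuclear protein-coding genes, 18 pseudogenes, 6 rows annotated as miRNA, 3 mitochondrial protein-coding genes, 3 mitochondrial rRNA or tRNA genes and 2 antisense or processed transcripts. Leaving out 1 library gave between 5 calls (without the KO gland of week 10 replicate 1) and 143 calls (without the KO gland of week 12 replicate 1). Of the 12 libraries left out in turn, all but the WT gland of week 8 replicate 1 (59 calls) moved the count by over 1.5 times. Replicates are separate mice by their labels, and p-values measure the spread between these mice.

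Some casein genes rose in KO glands. The caseins Csn1s1, Csn1s2a and Csn3, which form the protein micelles of milk, were 3 of the 30 genes that rose, out of 11 milk genes tested (27.3%, beside 0.109% of all genes called higher). Csn3 reached at most 18.3 CPM in WT glands (mean 13.9 ± 3.05, SD, n = 6) and ran from 24.9 to 57.9 CPM in KO glands (mean 32.8 ± 12.8), without overlap, a log2 difference of 1.22 ± 0.23 (adjusted p = 0.0886). Csn1s1 ran from 0.0771 to 3.01 CPM in WT (median 0.938) and from 2.64 to 16.4 CPM in KO glands (mean 10.6 ± 6.52, SD, n = 6), a log2 difference of 3.18 ± 0.6 (adjusted p = 0.092). Only the KO gland of week 8 replicate 1 fell inside the WT range of Csn1s1. Csn1s2a ran from 0 to 0.41 CPM in WT and from 0.34 to 2.16 CPM in KO glands, where only the KO gland of week 10 replicate 2 fell inside the WT range, a log2 difference of 3.19 ± 0.6 (adjusted p = 0.0951). No label gives a pregnant or lactating mouse. In RNA of many cells, the share of a cell type and its RNA per cell cannot be told apart. Of 10 luminal progenitor and alveolar markers, 5 were positive and 5 negative (median -0.02), with summed levels of 1190 to 1680 CPM in WT and 778 to 1640 CPM in KO glands. Csn3 was the 1 called higher and Wfdc18, described below, the 1 called lower.

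The other milk genes did not pass edgeR's test, while DESeq2 called 5 of the 11. Csn2, encoding beta-casein, had medians of 0.0406 CPM in WT and 0.466 CPM in KO glands, a log2 difference of 3.46 ± 0.76 (adjusted p = 0.135). Csn1s2b, another casein gene, stayed at or below 0.134 CPM in each of the 12 glands. The median over the 11 milk genes was 0.564 on the log2 scale, and 10 of the 11 were positive, beside 42.4% of all tested genes. The median was 0.578 with the rRNA share as covariate and 0.415 without the libraries over 5% rRNA. In tumors the sign of Csn3 was the opposite (log2 difference -0.56 ± 0.36, adjusted p = 0.558), while Csn1s1 (0.35), Csn1s2a (1.65) and Csn2 (1.82) were positive, and none of the 4 was called there. The milk list had a median of 0.269 in tumors.

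**Figure D2:**
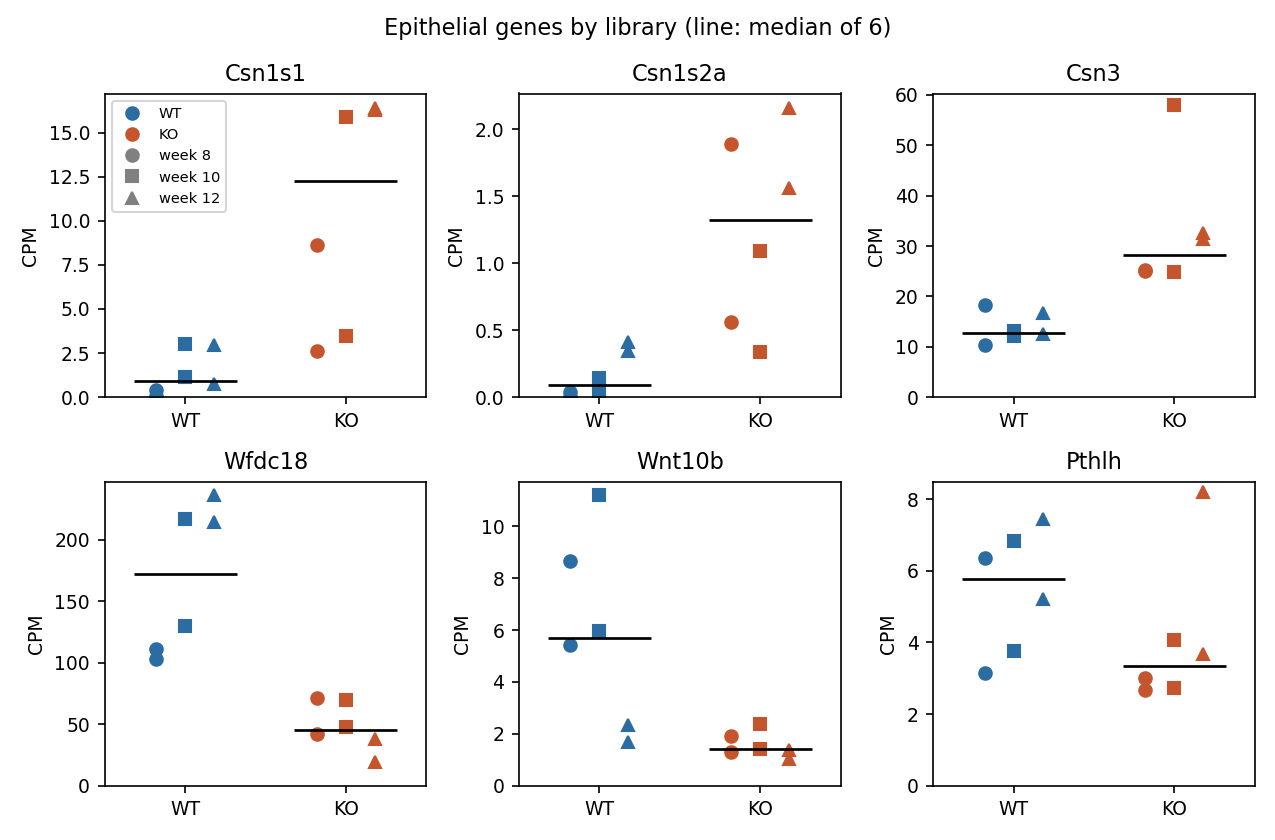
CPM (linear axes from 0) of 3 caseins, Wfdc18, Wnt10b and Pthlh in each of the 12 glands, with shapes for weeks and a line at the median of 6. All 6 KO glands lie above all 6 WT glands for Csn3 and below them for Wfdc18, and the groups overlap for Pthlh.

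The casein genes lie together on chromosome 5. RefSeq promoters (GRCm38.p6, 250 bases before to 50 after the start site) were at hand for 3 of them and are shown because STAT5, the factor that prolactin activates, is known to bind TTCNNNGAA in casein promoters. Capitals mark every match to TTCNNNGAA, which reads the same on both strands. Csn1s1 is chr5:87665958-87666257 on the plus strand, Csn2 is chr5:87699376-87699675 on the minus strand and Csn1s2a is chr5:87774200-87774499 on the plus strand, each printed 5′ to 3′.
Csn1s1: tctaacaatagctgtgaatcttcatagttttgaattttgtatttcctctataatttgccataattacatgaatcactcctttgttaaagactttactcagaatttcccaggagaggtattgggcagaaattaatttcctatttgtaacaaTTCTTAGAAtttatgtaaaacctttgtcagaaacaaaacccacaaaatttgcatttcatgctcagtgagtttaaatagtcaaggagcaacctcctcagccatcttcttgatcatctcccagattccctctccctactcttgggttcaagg
Csn2: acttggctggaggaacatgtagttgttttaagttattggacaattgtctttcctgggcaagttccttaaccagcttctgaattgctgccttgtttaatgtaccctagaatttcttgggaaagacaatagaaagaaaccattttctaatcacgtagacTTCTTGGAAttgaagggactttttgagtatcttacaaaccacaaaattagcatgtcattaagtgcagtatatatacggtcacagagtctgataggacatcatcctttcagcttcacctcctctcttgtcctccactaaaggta
Csn1s2a: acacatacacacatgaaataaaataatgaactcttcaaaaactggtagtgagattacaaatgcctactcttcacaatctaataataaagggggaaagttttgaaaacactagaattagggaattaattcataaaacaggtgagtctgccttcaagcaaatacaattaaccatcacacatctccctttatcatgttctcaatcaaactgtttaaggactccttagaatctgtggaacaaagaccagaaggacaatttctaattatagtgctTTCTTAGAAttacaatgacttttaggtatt
Each of the 3 held 1 match, starting 100 bases before the RefSeq start site in Csn1s1, 93 bases before it in Csn2 and 20 bases after it in Csn1s2a. GENCODE starts Csn1s2a at chr5:87774567, past the end of the printed window, and Csn2 at chr5:87699630, inside it. For Csn2 and Csn1s2a the place relative to the start site therefore depends on the annotation. Of 32851 promoters of this length, 8.3% held a match. A match in this window is a description of the letters and not of binding.

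The nuclear protein-coding genes that fell in KO glands numbered 10. Wfdc18, a small secreted protein of the whey acidic protein family, ran from 103 to 236 CPM in WT (median 172) and from 19.6 to 70.9 CPM in KO glands (median 45), without overlap. Its log2 difference was -1.8 ± 0.33 (adjusted p = 0.0803). Wnt10b, a Wnt ligand of the early mammary placode, ran from 1.68 to 11.2 CPM in WT and from 1.04 to 2.38 CPM in KO glands, a log2 difference of -1.7 ± 0.31 (adjusted p = 0.0874). The 2 WT glands of week 12 lay inside the KO range of Wnt10b, at 2.34 and 1.68 CPM. Wnt10b was the 1 called of 13 tested genes in a list of mammary bud targets of PTHrP signalling (7.69%, beside 0.192% of all genes). Of the 13, 5 were positive and 8 negative, with a median of -0.067, beside -0.064 for all tested genes. Over 24 other fits, Wnt10b was called in the same direction in 9.

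Col20a1, encoding a collagen chain, had medians of 4.21 CPM in WT and 1.55 CPM in KO glands, without overlap, a log2 difference of -1.54 ± 0.28 (adjusted p = 0.0886). Trim58, encoding a ubiquitin ligase known from red cell maturation, had medians of 4.64 and 1.01 CPM, also without overlap (log2 difference -2.05 ± 0.35, adjusted p = 0.065). The 2 tested red blood cell markers were negative too (median -1.862). They summed to 0.28 to 0.671 CPM in WT and 0 to 0.527 CPM in KO glands. The part of such cells in the Trim58 values was not tested. Slc12a2, the sodium, potassium and chloride cotransporter of secretory epithelia, was singled out after its values were seen. It ran from 443 to 2020 CPM in WT (median 1160) and from 202 to 471 CPM in KO glands (median 229), a log2 difference of -2.05 ± 0.32 (adjusted p = 0.0475). The antisense row 1500015A07Rik ran from 6.08 to 13.3 CPM in WT and from 1.99 to 2.95 CPM in KO glands (log2 difference -2.15 ± 0.22, adjusted p = 0.00459). The counting is not stated to use strand, so reads of such a row and of a gene on the other strand cannot be told apart. The processed transcript AA465934 had medians of 3.01 and 1 CPM without overlap (log2 difference -1.5 ± 0.21, adjusted p = 0.026). The other nuclear protein-coding genes that fell, beside Rassf8, were Klk1b22 (log2 difference -7.78), Amtn (-5.01), Gbp6 (-4.1) and Tmem200b (-0.97), named after their values were seen, each with WT and KO libraries that overlapped.

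The nuclear protein-coding genes that rose, apart from the caseins, Srrm4 and Lars2, did so by 0.61 to 1.02 on the log2 scale. Ywhae, encoding a 14-3-3 adaptor protein, ran from 205 to 256 CPM in WT and from 281 to 519 CPM in KO glands, a log2 difference of 0.8 ± 0.13 (adjusted p = 0.0475). Fkbp1a, encoding the small prolyl isomerase that binds rapamycin, ran from 47.4 to 70.8 and from 75.8 to 148 CPM (log2 difference 1.02 ± 0.16, adjusted p = 0.0475). Neither gene overlapped between genotypes. Ywhab, a second 14-3-3 gene and named after its values were seen, was at 0.68 ± 0.13 (adjusted p = 0.0886) with overlap. Capzb, an actin filament capping subunit, Rraga, a Rag GTPase of amino acid sensing, and Card10, a scaffold of NF-kB signalling, showed log2 differences of 0.72, 0.61 and 0.64, with adjusted p of 0.051, 0.0728 and 0.0896, and no overlap between groups. Srrm4, a splicing factor known from neurons, rose from a median of 0.787 to 2.49 CPM (log2 difference 1.7 ± 0.3, adjusted p = 0.0728).

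Both mitochondrial rRNAs rose in KO glands. mt-Rnr1, the small mitochondrial rRNA, ran from 278 to 1510 CPM in WT and from 2700 to 37600 CPM in KO glands, a log2 difference of 5.02 ± 0.64 (adjusted p = 0.0192). mt-Rnr2, the large one, ran from 3330 to 11400 and from 14300 to 71200 CPM (log2 difference 2.9 ± 0.41, adjusted p = 0.026). Neither overlapped between genotypes. Of the 12 mitochondrial protein-coding genes tested, 3 rose (25%, beside 0.109% of all genes), namely mt-Nd2 (log2 difference 1.32 ± 0.2, adjusted p = 0.0414), mt-Cytb (0.96 ± 0.17, adjusted p = 0.0728) and mt-Nd1 (0.87 ± 0.16, adjusted p = 0.0886), all subunits of the respiratory chain. Their median over all 12 was 0.752. As a share of all reads, mitochondrial mRNA was 0.521% to 0.9% in WT and 0.538% to 0.894% in KO glands (exact permutation p = 0.446). With the rRNA share as covariate, the median of the 12 was 0.297 and the log2 differences of mt-Rnr1 and mt-Rnr2 were 2.91 and 1.67. Another transcript, the threonine tRNA mt-Tt, was at 1.84 ± 0.26 (adjusted p = 0.026) and stayed at 1.84 with the covariate.

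Of 4 tested rows linked to rRNA, Mir6236 and Lars2 rose, and CT010467.1 and Gm15564 (log2 difference 9.89 ± 1.95, adjusted p = 0.104) did not pass the test. CT010467.1, the rRNA row on chromosome 17 that holds most of the rRNA reads, ran from 27.5 to 2310 CPM in WT and from 203 to 255000 CPM in KO glands, but did not pass the test (log2 difference 8.58 ± 1.85, adjusted p = 0.129; DESeq2 adjusted p = 6.21e-06). In the reads recovered from the normalized table it was at 0.51 (adjusted p = 0.92). Lars2, annotated as the mitochondrial leucyl-tRNA synthetase, moved with it, at 6.45 to 242 CPM in WT and 40.5 to 56600 CPM in KO glands (log2 difference 9.59 ± 1.84, adjusted p = 0.0999). Mir6236 ran from 0.155 to 3.32 and from 4.21 to 676 CPM without overlap (log2 difference 9.08 ± 1.39, adjusted p = 0.0461). With the rRNA share as covariate, Lars2 was at 1.33 on the log2 scale. The library kit keeps long RNA, so the Mir6236 row does not measure the mature miRNA, whose RefSeq sequence (chr9:110281353-110281371, plus strand, GRCm38.p6) is shown with its seed, bases 2 to 8, in capitals.
mmu-miR-6236: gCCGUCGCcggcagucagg
The other 5 rows annotated as miRNA that rose are shown from the GENCODE transcripts because they share sequence. Capitals mark the longest run that all of them share, of 23 bases.
Gm23935: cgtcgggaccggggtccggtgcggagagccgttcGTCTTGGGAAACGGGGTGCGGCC
Gm24187: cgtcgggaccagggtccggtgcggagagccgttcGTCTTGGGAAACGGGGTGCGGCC
Gm24245: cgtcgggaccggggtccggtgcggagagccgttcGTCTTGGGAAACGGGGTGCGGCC
Gm24270: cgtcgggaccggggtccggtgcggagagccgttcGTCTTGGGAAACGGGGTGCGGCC
Gm25911: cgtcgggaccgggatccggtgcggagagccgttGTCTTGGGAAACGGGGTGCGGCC
Gm23935, Gm24245 and Gm24270 share all of their 25-base words, so reads among them cannot be placed by sequence alone. Their log2 differences were 6.38 for Gm23935, 7.91 for Gm24187, 7.24 for Gm24245, 7.53 for Gm24270 and 7.52 for Gm25911, with adjusted p from 0.0475 to 0.0727. With the rRNA share as covariate they were 1.18 for Gm23935, 2.03 for Gm24187, 3.39 for Gm24245, 1.86 for Gm24270 and 2.76 for Gm25911.

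Pseudogenes made up 18 of the 53 calls, 11 lower and 7 higher in KO glands, which is 0.674% of the 2672 pseudogenes tested, beside 0.192% of all genes. As a share of reads, pseudogenes took 0.332% to 0.394% in WT and 0.263% to 0.367% in KO glands (exact permutation p = 0.0108, adjusted p = 0.0252). Pseudogenes are copies of other genes, so reads can be split between the copies and these calls are uncertain. Of the 18, 17 had a tested best match among protein-coding transcripts by shared 25-base words, and 0 of these 17 matches were called (lowest adjusted p = 0.214). Ncoa4-ps, on chromosome 12, had the lowest p of all tested genes. It ran from 4.74 to 11.9 CPM in WT and from 0.0474 to 0.138 CPM in KO glands, and no KO library held over 3 reads, so it was at least 65.3-fold lower. Ncoa4 itself shares 97.3% of the words of Ncoa4-ps and had a log2 difference of 0.08 ± 0.09 (adjusted p = 0.807). In tumors Ncoa4-ps ran from 0.0212 to 6.51 CPM in WT and from 0 to 6.04 CPM in KO mice. In the 2 WT glands of week 6, which entered no test of genotype, Ncoa4-ps was at 0.0679 and 4.61 CPM, so 1 WT gland was as low as the KO glands.

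Other pseudogenes were called in both directions. Gm5182 matched Acaca, a fatty acid synthesis gene, over 91.1% of its words and ran from 2.12 to 9.79 CPM in WT and from 0 to 0.168 CPM in KO glands (log2 difference -5.83 ± 0.62, adjusted p = 0.00514). Acaca had a log2 difference of 0.18 ± 0.16 (adjusted p = 0.752). Gm14584 was lower without overlap (log2 difference -2.32 ± 0.26, adjusted p = 0.00843), and its match Csnk1g3 was at 0.32 ± 0.09 (adjusted p = 0.22). Gm4202 matched Ywhaz over 97.2% and was at 0.463 to 9.02 CPM in WT and 0.183 to 0.521 CPM in KO glands (log2 difference -4.62 ± 0.59, adjusted p = 0.0192). In the week 6 WT glands Gm4202 was at 0.294 and 0.31 CPM, inside the KO range, while Gm5182 (5.48 and 4.72 CPM) and Gm14584 (2.67 and 3.79 CPM) were inside the WT range. Of all 53 called genes, 38 had both week 6 glands on the WT side of the geometric midpoint of the group means, with 0.1 CPM added. This count was not made over all tested genes, and the series has no KO gland of week 6, so it cannot check the calls. The ribosomal protein gene Rpl15 was the match of 4 of the pseudogenes. Ppp1r2-ps1 and Gm13340 rose without overlap, by 1.67 ± 0.23 and 1.25 ± 0.21 on the log2 scale (adjusted p = 0.026 and 0.0572).

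The PTHrP pathway and cyclic AMP response lists gave no call by edgeR's test. As the background of the list counts, 2847 of all 27578 genes had an unadjusted p under 0.05, 556 were called by DESeq2, and 11706 were positive and 15872 negative. Of 30 tested genes of the ligand, receptors, G proteins and kinases, 0 were called by edgeR's test, 3 had an unadjusted p under 0.05 and 0 were called by DESeq2. Their median log2 difference was 0.045. Of 21 cyclic AMP response genes 0 were called by edgeR, 5 had an unadjusted p under 0.05 and 3 were called by DESeq2 (median -0.035). Nr4a1, an early cyclic AMP target, was at 0.34 ± 0.45 (adjusted p = 0.841) and Crem, a cyclic AMP response modulator, at -0.07 ± 0.15 (adjusted p = 0.906).

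Other lists had members mostly of 1 sign without a call. Of 24 interferon-stimulated genes 0 were called by edgeR, 15 had an unadjusted p under 0.05 and 9 were called by DESeq2, and 23 had negative log2 differences, with a median of -1.623. Their summed level ran from 164 to 1970 CPM in WT and from 156 to 766 CPM in KO glands, and the median was -2.98 at week 8, -1.625 at week 10 and 0.007 at week 12. Macrophage markers (9 of 10 negative, median -0.675, summed level 7.9 to 47 CPM in WT and 7.56 to 14.9 CPM in KO glands) had medians of -3.091, 0.253 and 0.172 at weeks 8, 10 and 12, and fibroblast markers (9 of 11 negative, median -0.693) of -4.05, 0.68 and 1.102. The part of these cells in the interferon values was not tested. All 11 markers of hormone-sensing luminal cells were negative (median -0.75, 0 called by edgeR, 5 at an unadjusted p under 0.05, 2 called by DESeq2), with Pgr, the progesterone receptor, at -1.42 ± 0.69 (adjusted p = 0.506) and Esr1, the estrogen receptor, at -0.96 ± 0.38 (adjusted p = 0.406). The 26 S phase genes were all positive (median 0.418) and 29 of 30 G2/M genes were positive (median 0.26), but the G2/M median was -0.165 with the rRNA share as covariate. At week 8 both medians were negative, -0.463 for S phase and -1.074 for G2/M, beside 0.782 and 0.827 at week 10 and 1.069 and 0.922 at week 12. The 12 basal markers were all positive (median 0.231), but their median ran from -0.163 to 0.935 over 24 other fits, as the fibroblast median did from -1.429 to 0.433. None of the S phase, G2/M and basal genes was called by edgeR or DESeq2 or had an unadjusted p under 0.05. B cell markers, which GFP+ epithelium should lack, had a median of 1.781 and summed to 0.149 to 6.88 CPM in WT and 0.0474 to 59.6 CPM in KO glands, and over 24 other fits the median ran from -2.039 to 2.725. Fibroblast markers summed to 70 to 1150 and 66.7 to 361 CPM. Fatty acid and triglyceride synthesis genes (24 tested, 0 called by edgeR or DESeq2, 3 at an unadjusted p under 0.05) had a median of 0.078, and fatty acid oxidation genes (24 tested, 0 called by edgeR or DESeq2, 5 at an unadjusted p under 0.05) of -0.055.

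**Figure D3:**
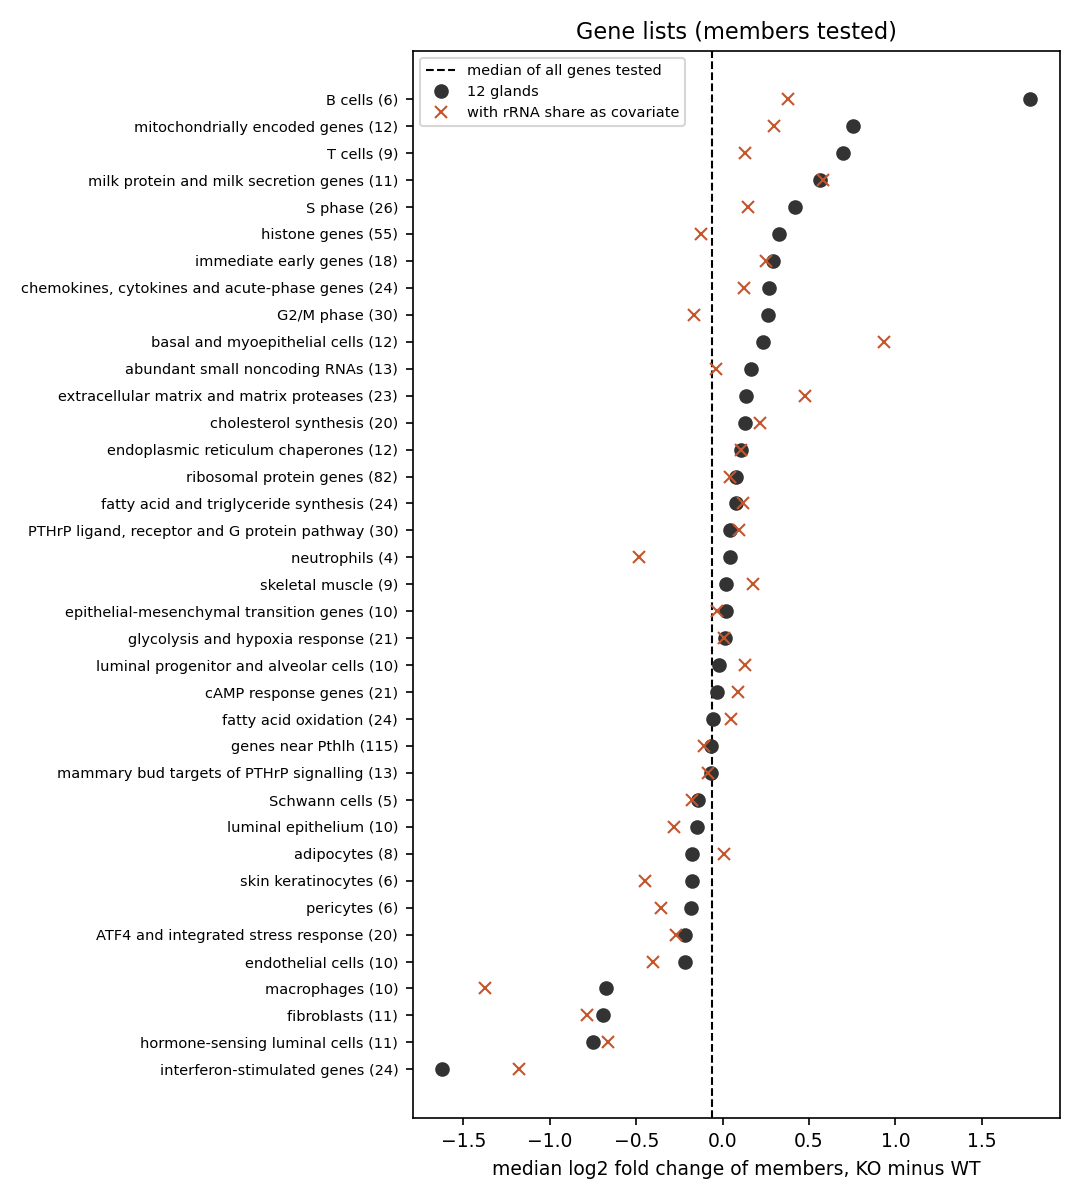
Median log2 fold change, KO minus WT, of the members of each gene list with 3 or more members tested, rRNA rows aside, over the 12 glands (dots) and with the rRNA share as covariate (crosses), with the number of members tested in parentheses and a dashed line at the median of all tested genes. Interferon-stimulated genes (-1.623) and hormone-sensing luminal markers (-0.75) have the lowest dots, and B cells (1.781), mitochondrial genes (0.752), T cells (0.697) and milk (0.564) have the highest. Summed over members, B cell markers had medians of 0.657 CPM in WT and 0.248 CPM in KO glands, and T cell markers 11.5 and 7.97 CPM.

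Genes around the floxed locus showed 1 call. Of 115 tested genes within 10 Mb of Pthlh on chromosome 6, 1 was called (0.87%, beside 0.192% of all genes) and 13 had an unadjusted p under 0.05, beside 2847 of all 27578. It was Rassf8, a RAS association domain protein at chr6:145746748-145821079, 1.47 Mb from Pthlh by their centres. It ran from 17 to 32.1 CPM in WT and from 12.8 to 16.7 CPM in KO glands, without overlap, a log2 difference of -0.68 ± 0.11 (adjusted p = 0.0557). In tumors its log2 difference was -0.5 ± 0.09 (adjusted p = 0.0371), under the fold change of 1.5. In tumors, 3 of 119 genes tested near Pthlh were called, beside 0.455% of all genes. Sequence that came with the floxed allele and loss of PTHrP cannot be told apart here.

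The calls were checked against the rRNA share of the raw table. With its log10 as a covariate 2 genes were called, Ncoa4-ps and Mir6236, and without the 3 KO libraries over 5% rRNA 2 were called, Ncoa4-ps and Gm8113, a gene not called over the 12 glands. All 53 genes had the same sign in both checks, and 52 of them had an unadjusted p under 0.05 in each, though they were chosen on the same libraries. Of the 53, 36 kept at least 75% of their log2 difference with the covariate, and 7 fell to 50% or less. Csn1s1 went from 3.18 to 3.14 ± 0.86 and Csn3 from 1.22 to 1.12 ± 0.32, while Lars2 went from 9.59 to 1.33 ± 0.34. Wfdc18 was at -2.01 ± 0.49 with the covariate (adjusted p = 0.937). Genotype and rRNA share move together in these glands. The SE was larger with the covariate for Csn1s1 (0.6 to 0.86) and Wfdc18 (0.33 to 0.49) and smaller for Lars2 (1.84 to 0.34) and mt-Rnr1 (0.64 to 0.5).

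**Figure D4:**
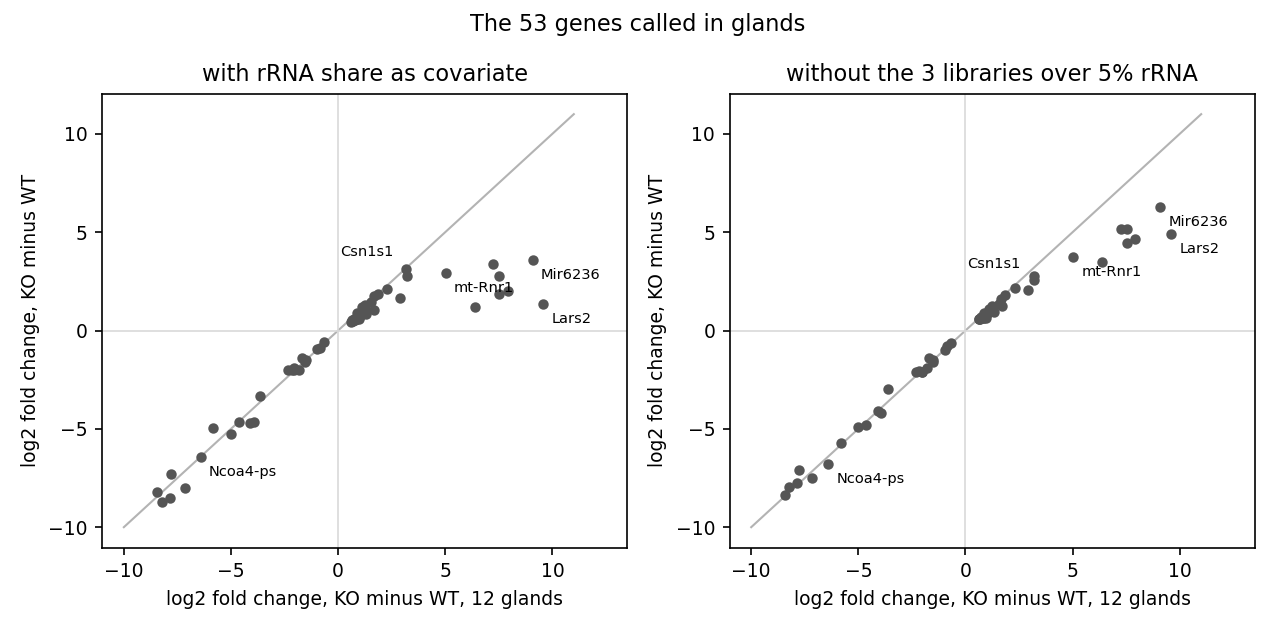
Log2 fold change (KO minus WT) of the 53 called genes over 12 glands against the same genes with the rRNA share as covariate (left) and without the 3 libraries over 5% rRNA (right), with a line of equality. Lars2 (9.59 to 1.33) and Mir6236 (9.08 to 3.57) lie well below it with the covariate.

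The genotype difference differed between weeks for 14 genes (0.0508%, test of the genotype by week terms), and 2275 had an unadjusted p under 0.05. For 4 of the 14, named after their values were seen, both WT glands of week 12 stood apart from the other WT glands. Rps18-ps6 was at 0.23 and 0 CPM in them and at 136 to 196 CPM in the other WT glands, and Rps18-ps5, H2-DMb2 and Glo1-ps were also near 0 in these 2 mice. With 2 mice per genotype and week, age and the mice drawn cannot be told apart. Within weeks, 2 genes were called at week 8 (0.00725%), 1 at week 10 (0.00363%) and 20 at week 12 (0.0725%). Btn1a1, which coats milk fat droplets, was at 10.9 and 11.1 CPM in WT and 44.5 and 50.8 CPM in KO glands of week 8, and at 28.8 and 45.7 CPM in WT and 13.6 and 15.2 CPM in KO glands of week 12 (adjusted p = 0.0271). Of the WT glands of week 12, 1 reached the KO range of week 8. Timp1, an inhibitor of matrix proteases, ran the other way, at 72.2 and 117 CPM in WT and 41.8 and 33.8 CPM in KO glands of week 8, and at 36.7 and 33.8 CPM in WT and 129 and 214 CPM in KO glands of week 12 (adjusted p = 0.0525). Btn1a1 and Timp1 were singled out among the 14 as members of the milk and matrix lists. None of the genes named above as called in the 12 glands passed this test.

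In tumors of weeks 8 and 10, with 3 mice per genotype and week, 129 of 28355 genes were called (0.455%), and 5 genes were called in the same direction in glands, which is 9.43% of the gland calls and 3.88% of the tumor calls. They were Wfdc18, Srrm4, AA465934, Gm5182 and Gm4202. Wfdc18 was at -1.47 ± 0.31 in tumors (adjusted p = 0.0784) and Srrm4 at 1.96 ± 0.31 (adjusted p = 0.0199). AA465934 was at -2.15 ± 0.4 (adjusted p = 0.0441), Gm5182 at -4.84 ± 0.71 (adjusted p = 0.0155) and Gm4202 at -4.51 ± 0.61 (adjusted p = 0.0138). For both pseudogenes the lowest WT tumor was as low as KO tumors. Gm5182 ran from 0.0399 to 6.86 CPM in WT and from 0.0571 to 0.186 CPM in KO tumors, and Gm4202 from 0.246 to 8.84 and from 0.179 to 0.412 CPM. The sign in tumors was that of glands for 20 of 23 genes lower and 25 of 30 genes higher in KO glands, beside 56.8% of all genes tested in both tissues. The rRNA-linked rows moved the same way in tumors without passing the test, with CT010467.1 at 4.59 (mean 1340 CPM in WT and 39100 CPM in KO tumors), Lars2 at 5.4 and mt-Rnr1 at 3.01. Their part in the shared signs was not tested. Ncoa4-ps was at -0.54 ± 3.13 in tumors (adjusted p = 0.969).

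The difference between gland and tumor in the genotype effect, taken over weeks 8 and 10 only, was called for 2 of 36527 genes (0.00548%) in the fit of all 33 libraries, with 2038 at an unadjusted p under 0.05. They were Gm13340 and Col5a3, a collagen chain. The log2 differences of Col5a3 in glands were -4.08 at week 8, -2.59 at week 10 and 0.69 at week 12, and it was not called over the 12 glands (-2.12 ± 0.79, adjusted p = 0.383).

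**Figure D5:**
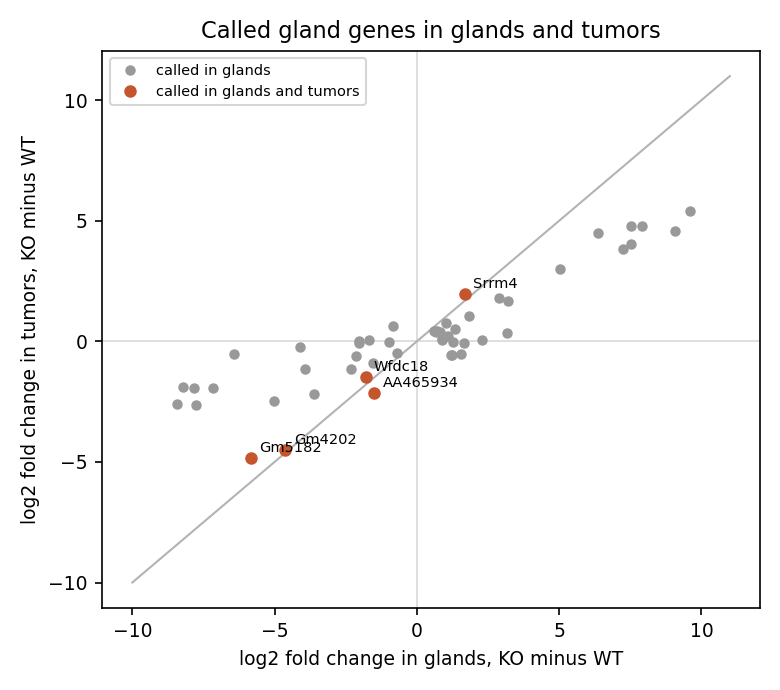
Log2 fold change (KO minus WT) of the 53 genes called in glands, in glands and in tumors of weeks 8 and 10, with a line of equality. The 5 genes called in both tissues are coloured and named, and lie near the line, from -5.83 (Gm5182) to 1.7 (Srrm4) in glands.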

How the data were processed

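Total RNA of sorted cells was depleted of rRNA and sequenced from stranded libraries. The authors aligned reads to GENCODE transcripts and GRCm38 with HISAT. Duplicates were removed (Picard 1.128) before HTSeq gave gene counts, and use of strand in counting is not stated. The raw counts as deposited cover 55598 rows, of which 111 are not genes, held at most 0.126% of reads of a library and were left out. A second deposited table holds signal, namely reads after scaling by the authors with size factors per library. Its gland values came out whole at a tolerance of 0.001, and these reads served as an alternative, with 52 of 26904 genes called.

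Genes whose reads in all 12 glands came to 10 or more were tested with edgeR 4.0.16 (TMM, estimateDisp, glmQLFit, glmQLFTest; R 4.3.3), with week as covariate. Tumors were fitted alike. Called genes had a fold change over 1.5 and an adjusted p under 0.1, as in the study, which names DESeq2 (1.42.0, run as an alternative). SE is the log2 difference over the root of F. The fits were tested on simulated data in which 200 genes changed by 2 on the log2 scale. There edgeR recovered 193 of them and also called 18 unchanged genes. DESeq2 recovered 198 and also called 73 unchanged genes. Named were Pthlh, called genes of largest change (up to 12 coding) or lowest p (up to 5 noncoding) in each direction with a mean of at least 1 CPM and no overlap, called members of fixed lists with up to 2 uncalled members, called genes near Pthlh, genes called in glands and tumors and rRNA rows. No pair of replicates was a library deposited again. The glands and lists were chosen with earlier results of these data known. Coordinates are from GENCODE M21 (GRCm38).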

Additional observations from a re-analysis of the deposited data

Results flagged for a closer look

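Of 72 sets of 6 libraries examined for a library far from the others, 9 held one. The limit used is passed by about 1 in 20 independent sets of normally distributed values. Several of these sets share libraries and linked rows, and normality was not tested, so that rate need not hold here. Ncoa4-ps was at 11.9 CPM in the WT gland of week 12 replicate 2, with the next at 6.01. Gm4202 was at 0.463 CPM in the WT gland of week 8 replicate 2, with the next at 7.18, and at 0.521 CPM in the KO gland of week 12 replicate 2, with the next at 0.281. Csn3 was at 57.9 CPM in the KO gland of week 10 replicate 1, with the next at 32.5. mt-Rnr1 was at 1510 CPM in the WT gland of week 12 replicate 2, with the next at 725. The WT gland of week 12 replicate 1 stood apart in Mir6236 (3.32 CPM), in Lars2 (242 CPM, next 31) and in rRNA share (0.261%, next 0.0274%). The WT gland of week 10 replicate 1 had 130981596 counted reads, the most of the WT glands.

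Over weeks 8 and 10, the genotype difference of Col5a3 was 3.7 lower on the log2 scale in glands than in tumors (-3.7 ± 0.55, adjusted p = 0.0182, edgeR), though its gland value was 0.69 at week 12, and that of Gm13340 was 1.92 ± 0.3 higher (adjusted p = 0.021). The genotype difference differed between weeks for 14 genes.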

How the results depend on the processing

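Over the 12 glands 53 genes were called. Scaling by DESeq2's size factors, leaving out rRNA rows, thinning to the lowest total and the recovered reads, an alternative chosen after seeing the data, gave 50 to 54. The count was 1010 with no filter on low counts, 92 with filterByExpr, 556 with DESeq2, 331 in the fit of all 33 libraries, 81 with no week term, 2 with the rRNA share as covariate and 2 without the libraries over 5% rRNA. Leaving out each library in turn gave 5 to 143. With a replicate block the count was 22. Replicate numbers do not pair these mice: deviations of same-numbered WT and KO glands correlated at 0.0839, -0.136 and -0.321 at weeks 8, 10 and 12. The cause of these changes was not tested. For genotype by week the count went from 14 to 1007 with DESeq2. In tumors it went from 129 to 716 with DESeq2, to 104 with the covariate, to 99 with the replicate block and to between 42 (without WT week 8 replicate 3) and 510 (without WT week 10 replicate 2) when 1 tumor was left out. The difference in mean log10 rRNA share ran from 1.66 to 2.24 without 1 library (exact permutation p at most 0.0368), and p was 0.0195 for percent and 0.037 within weeks. In the recovered reads, chosen after seeing the data, it was -0.19, and 0.946 with Gm42418 added. The tables place reads of the overlapping rows CT010467.1 and Gm42418 differently.

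Called genes chosen by the naming rule, and Slc12a2, kept their direction in every alternative that could be fitted to them, staying called in 453 of the gene and setting pairs and not in 265. Signs changed only for genes that were not called. Krt18 was at 0.01 with DESeq2's size factors, 0.01 with DESeq2 and 0 after thinning, Crem at 0.03 and mt-Nd3 at -0.04 without the libraries over 5% rRNA. Leaving out each gland in turn gave ranges of -1.36 to 0.24 for Pth1r, -0.82 to 0.12 for Csn1s2b, -0.13 to 0.01 for Crem, -0.15 to 0.05 for Krt18, -0.08 to 0.28 for Krt14 and -0.01 to 0.79 for Nr4a1. Pth1r and Csn1s2b had few reads. Pgr stayed negative, from -2.21 (without the KO gland of week 10 replicate 1) to -0.79 (without the WT gland of week 8 replicate 2). Over 24 alternatives, list medians ran from 0.295 to 1.228 for milk, -1.972 to -0.945 for interferon, -0.847 to -0.58 for hormone-sensing cells, 0.144 to 0.602 for S phase and -1.373 to -0.366 for macrophages. They changed sign for fibroblasts (-1.429 to 0.433), basal cells (-0.163 to 0.935), G2/M (-0.165 to 0.667), cyclic AMP response (-0.082 to 0.25), the PTHrP pathway (-0.011 to 0.092), fatty acid synthesis (-0.006 to 0.152) and fatty acid oxidation (-0.072 to 0.051). Sign changes also occurred for B cells (-2.039 to 2.725), T cells (-0.391 to 1.633), luminal progenitor and alveolar markers (-0.169 to 0.162) and mammary bud targets (-0.372 to 0.029). Other lists not described here changed sign too.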
